A study of Mus musculus with 15 samples.

Results

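The 9 transcription factors described here set up and hold epidermal identity: *Trp63*, the grainyhead-like factors *Grhl1*, *Grhl2* and *Grhl3*, the epithelial ETS factors *Ehf* and *Elf3*, the C/EBP factors *Cebpb* and *Cebpd*, and *Tfap2a*. They are a list of names, matched exactly to gene symbols by a rule that uses no measured value, although the list was drawn up with earlier results of these data known. Of the 9, 8 were found among the 21110 genes measured in each library, and *Tfap2a* was not analysed here.

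RNA was taken from mouse ears at 2 and 10 weeks of age, and each mouse gave 1 RNA-seq library. Of the 15 mice, 8 were sampled at 2 weeks (4 of each genotype) and 7 at 10 weeks (4 *Socs3* cKO and 3 wild type). *Socs3* cKO mice are C57BL/6 mice in which keratin 5 drives the deletion of *Socs3*, so the gene is lost from keratinocytes and kept in the other cells of the ear. The labels name the source as keratinocytes and the tissue as ear. The mean log2(FPKM + 0.1) of 7 keratinocyte markers was 8.51 to 10.2 over the mice, and markers of fibroblasts (6.89 to 8.54), endothelium (1.29 to 3.23), skeletal muscle and red blood cells were present in every library too, so the samples are treated as whole ear.

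p63 is the master regulator of stratified epithelia and keeps basal keratinocytes in their lineage. The grainyhead-like factors switch on genes of the skin barrier and of epithelial junctions, the epithelial ETS factors EHF and ELF3 act in differentiating epithelium, and the C/EBP factors accompany the exit of keratinocytes from the basal layer. C/EBPβ and C/EBPδ are also made in macrophages and fat cells, and in many tissues they are induced by IL-6 type cytokines through STAT3, the pathway that SOCS3 restrains.

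Expression is given as FPKM, which is scaled to gene length and to the mapped reads of a library, so levels can be set side by side between genes. The depth of the libraries is unknown, since no counts were analysed. The libraries listed 11698 to 13251 genes at 1 FPKM or more. Genes at 0 FPKM numbered 1414 to 3176 in the 10-week wild type libraries and 4044 to 4423 in the libraries of the other groups. The cause of this difference was not tested, and every comparison with the 10-week wild type carries it. The targeted gene, *Socs3*, did not mark the genotype. Its FPKM at 2 weeks ranged over 9.71 to 10.3 (wild type) and 1.25 to 12.6 (*Socs3* cKO), with replicates 2 and 3 of the latter at 9.32 and 12.6, and at 10 weeks over 2.02 to 4.81 (wild type) and 29.8 to 47.7 (*Socs3* cKO). A value for the whole gene in whole ear includes cells that keep it, and cannot check the deletion. "*Socs3* cKO" therefore means the libraries labelled so, here and in each direction given below. The library numbers of no group fall among those of another, although wild type replicate 1 at 2 weeks is apart from the run of its own group, and a batch of libraries and its group cannot be told apart. The mean log2(FPKM + 0.1) of 16 keratinocyte structural genes (keratins, desmosomal and adhesion genes) ranged over 7.14 to 7.30 (wild type) and 5.87 to 7.37 (*Socs3* cKO) at 2 weeks, and over 5.80 to 6.61 (wild type) and 6.95 to 7.61 (*Socs3* cKO) at 10 weeks. By this mean, *Socs3* cKO replicate 1 at 2 weeks and wild type replicate 3 at 10 weeks were the lowest of their ages. Results that rest on them are also given without them. In the former, genes of this list went both ways. Of all libraries it had the highest *Krt14* (4321 FPKM) and the lowest *Krt5* (838 FPKM). It also had the highest sum of FPKM (671904) and the fewest genes at 1 FPKM or more (11698). The cause was not tested.

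*Trp63* and *Grhl1* were the most abundant of the 8 factors in the 2-week wild type, and *Elf3* was the least abundant in every group. Mean levels in the wild type at 2 weeks were 64.5 ± 6.62 FPKM for *Grhl1* and 53.8 ± 5.26 FPKM for *Trp63* (SD, n = 4), and the ranges of these neighbours overlapped. They were followed by *Cebpb* at 29.2 ± 1.95, *Grhl3* at 15.2 ± 1.37, *Grhl2* at 9.90 ± 1.33, *Ehf* at 8.31 ± 0.448, *Cebpd* at 6.10 ± 1.06 and *Elf3* at 1.94 ± 0.242 FPKM. In that group, the ranges of neighbours in this order overlapped for *Grhl1* and *Trp63* and for *Grhl2* and *Ehf* and for no other neighbours. At 10 weeks *Cebpd* stood below *Grhl1*, *Trp63* and *Cebpb* in the wild type, at 8.08 ± 1.82 FPKM (n = 3), and between *Grhl1* and *Cebpb* in *Socs3* cKO, at 58.3 ± 8.61 FPKM (n = 4). Its range there overlapped those of both neighbours, *Grhl1* at 63.3 ± 17.4 and *Cebpb* at 52.4 ± 4.83 FPKM. *Elf3* remained last at 3.62 ± 1.68 FPKM, with a range that overlapped that of *Grhl2* at 8.73 ± 1.94 FPKM.

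**Figure D1:**
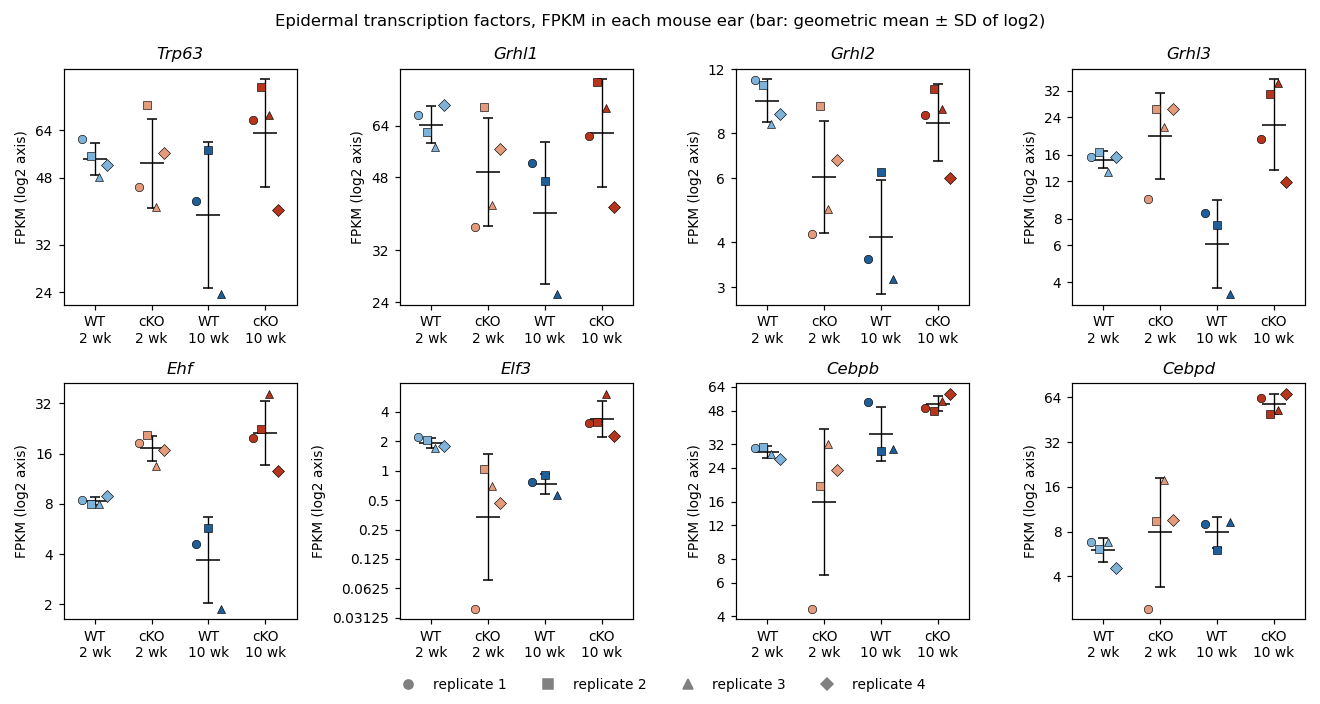
FPKM of the 8 factors in each mouse ear on a log2 axis, by group, with the geometric mean and the SD of the log2 values as bars. *Ehf* was above the wild type in every *Socs3* cKO mouse at both ages, and *Cebpd* at 10 weeks stood at 49.5 to 67.3 FPKM in *Socs3* cKO against 5.99 to 9.28 FPKM in the wild type.

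The genes lie apart in the genome, and each value is for the whole gene. In mm9 and the GENCODE annotation of that build, *Trp63* covers chromosome 16 from 25683849 to 25892188 on the plus strand and has 8 transcripts, so its long and short p63 isoforms cannot be separated here. *Grhl1* covers chromosome 12 from 25257152 to 25302256 and *Grhl2* chromosome 15 from 37162791 to 37293324, both on the plus strand. *Grhl3* covers chromosome 4 from 135097803 to 135129545 on the minus strand, and the longest transcript of each grainyhead-like gene has 16 exons. On the minus strand too, *Ehf* covers chromosome 2 from 103103590 to 103143435 and *Elf3* chromosome 1 from 137150151 to 137155049, with 9 exons in the longest transcript of each. *Cebpb* is a single exon on chromosome 2 from 167514415 to 167515918, and *Cebpd* covers chromosome 16 from 15887379 to 15888559, both on the plus strand. GC content of the longest transcript ran from 42.5% in *Ehf* and 44.2% in *Trp63* to 67.2% in *Cebpb*.

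RefSeq promoters (GRCm38.p6) were at hand for 4 of the 8 factors, *Elf3*, *Grhl3*, *Grhl1* (2 entries) and *Cebpb*. The 250 bases before the start of *Elf3* and of *Grhl3* are shown because both genes were up-regulated in *Socs3* cKO at 10 weeks. They lie on the minus strand at chr1:135258473-135258722 and chr4:135573633-135573882, and are written 5′ to 3′ with no capitals because no motif searched for was found in them.
*Elf3*: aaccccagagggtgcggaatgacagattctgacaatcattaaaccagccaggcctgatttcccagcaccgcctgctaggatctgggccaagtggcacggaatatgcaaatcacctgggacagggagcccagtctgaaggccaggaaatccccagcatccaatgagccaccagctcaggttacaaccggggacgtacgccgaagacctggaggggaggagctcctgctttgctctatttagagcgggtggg
*Grhl3*: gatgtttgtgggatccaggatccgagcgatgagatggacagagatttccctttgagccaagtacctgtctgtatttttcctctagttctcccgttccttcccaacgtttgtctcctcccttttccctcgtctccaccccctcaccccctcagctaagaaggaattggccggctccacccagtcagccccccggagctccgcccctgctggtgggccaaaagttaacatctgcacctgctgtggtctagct
The motifs were the STAT site TTCNNNGAA, the AP-1 site TGACTCA or TGAGTCA, the grainyhead site AACCGGTT, the C/EBP site TTGCNNAA and the ETS core CCGGAAG, each on both strands. None of the 5 windows of the 4 factors held a match. Among 32851 promoter windows of the same length, 7.02% held the STAT letters, 4.46% the AP-1 letters, 0.116% the grainyhead letters, 9.56% the C/EBP letters and 6.91% the ETS letters. Absence from a window of this size says only that these letters are not in it.

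The first comparison asks which of the factors differed in *Socs3* cKO ears at 2 weeks, and *Ehf* was the only one of the 8 that was a DEG. DEGs had an adjusted p below 0.01 (limma on log2(FPKM + 0.1), 2-sided, Benjamini-Hochberg over all genes tested) and a |log2(FC)| of at least 1. Among all 13524 genes tested at this age, 14.4% were DEGs and 7.24% were DEGs with higher expression. The median log2(FC) was -0.21 over the 8 factors and also -0.21 over all genes tested.

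*Ehf* was 8.39, 7.93, 8.01 and 8.91 FPKM in the wild type and 18.5, 20.7, 13.6 and 16.8 FPKM in *Socs3* cKO at 2 weeks. The groups did not overlap, with all 4 *Socs3* cKO mice higher, as in 22.9% of all genes tested. *Ehf* was up-regulated by 2.06-fold, with a log2(FC) of 1.04 (SE 0.16, adjusted p = 0.00199). Its log2(FC) lay near the threshold of 1, and it stayed between 0.95 and 1.15 when each mouse was left out in turn. The call was lost without wild type replicate 2 (adjusted p = 0.0109), wild type replicate 3 (adjusted p = 0.01005) or *Socs3* cKO replicate 2 (log2(FC) 0.95), and the log2(FC) was 0.90 after removal of the trend with length and GC content. Over all genes, DEGs numbered 1951 with every mouse, and 859, 918 and 3348 without these mice in that order.

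*Elf3*, the close relative of *Ehf* among the ETS factors, lay on the other side. Its level was 2.22, 2.04, 1.69 and 1.79 FPKM in the wild type and 0.0386, 1.05, 0.698 and 0.472 FPKM in *Socs3* cKO. All 4 *Socs3* cKO mice were below all 4 wild type mice, as were 33.2% of all genes tested, and replicate 1 was much the lowest. *Elf3* passed the expression filter here through the wild type, since of the *Socs3* cKO mice only replicate 2 reached 1 FPKM. The log2(FC) was -1.97 (SE 0.58, adjusted p = 0.0257), which did not pass the threshold. Without *Socs3* cKO replicate 1 it was -1.33 with an adjusted p of 0.00204 and passed. In a fit with all 4 groups it also passed, at -1.97 with an adjusted p of 0.00553, and there *Ehf* did not, with an adjusted p of 0.0159.

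The grainyhead-like factors went in different directions at 2 weeks, and none passed the threshold. *Grhl1* was 67.8, 61.8, 56.7 and 71.7 FPKM in the wild type and 36.5, 70.8, 41.1 and 56.1 FPKM in *Socs3* cKO. *Grhl2* was 11.2, 10.8, 8.49 and 9.06 FPKM in the wild type and 4.22, 9.50, 4.96 and 6.75 FPKM in *Socs3* cKO. Replicate 2 of *Socs3* cKO lay within the wild type range for both genes, and the other *Socs3* cKO mice lay below it. The log2(FC) was -0.38 (SE 0.22, adjusted p = 0.168) for *Grhl1* and -0.69 (SE 0.26, adjusted p = 0.0532) for *Grhl2*. *Grhl3* was 15.6, 16.4, 13.2 and 15.6 FPKM in the wild type and 9.90, 26.2, 21.5 and 26.2 FPKM in *Socs3* cKO. Of the *Socs3* cKO mice, 3 were above the wild type range and replicate 1 was below it. The log2(FC) of *Grhl3* was 0.37 (SE 0.30, adjusted p = 0.324), and 0.69 with an adjusted p of 0.0011 without replicate 1.

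*Trp63* differed least of the 8 at 2 weeks. It was 60.6, 54.8, 48.2 and 51.7 FPKM in the wild type and 45.4, 74.3, 40.2 and 55.6 FPKM in *Socs3* cKO, and the wild type range lay inside that of *Socs3* cKO. The log2(FC) was -0.03 (SE 0.20, 95% interval -0.49 to 0.42, adjusted p = 0.896). The sign was positive under median-of-ratios scaling, at 0.17, and relative to the keratinocyte structural genes, at 0.33.

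Neither C/EBP factor passed the threshold at 2 weeks, and both varied widely in *Socs3* cKO. *Cebpb* was 30.5, 31.0, 28.5 and 26.7 FPKM in the wild type and 4.39, 19.2, 32.2 and 23.4 FPKM in *Socs3* cKO. *Cebpd* was 6.86, 6.16, 6.79 and 4.57 FPKM in the wild type and 2.42, 9.45, 17.8 and 9.62 FPKM in *Socs3* cKO. In both genes replicate 1 was the lowest of the 8 mice and replicate 3 the highest. The log2(FC) was -0.87 (SE 0.54, adjusted p = 0.200) for *Cebpb* and 0.40 (SE 0.53, adjusted p = 0.540) for *Cebpd*. Without replicate 1 they were -0.26 (adjusted p = 0.202) and 0.95 (adjusted p = 0.00956, just under the fold threshold), and after removal of the trend with length and GC content *Cebpb*, the most GC-rich of the factors with a value, was at 0.40 (adjusted p = 0.0129).

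Markers of other structures moved at 2 weeks too. All 9 hair follicle matrix markers were down-regulated in *Socs3* cKO, with mean log2 levels of 5.13 to 5.54 (wild type) and -0.26 to 0.79 (*Socs3* cKO). Of 7 skeletal muscle markers 5 were up-regulated, with means of 5.20 to 5.73 and 6.74 to 7.20, as were all 4 red blood cell markers tested, with means of 5.84 to 6.09 and 8.22 to 9.49. Of 7 macrophage and neutrophil markers tested 1 was up-regulated, *S100a8* at 4.77, and the others lay between -0.82 (*Itgam*) and 1.17 (*Lyz2*). The means of this list were 2.37 to 2.62 and 3.17 to 3.55. They cover 9 genes, among them *Mpo*, which was at 0 FPKM in every 2-week wild type mouse. Of 8 fibroblast markers 3 were down-regulated and 1 up-regulated, with means of 8.37 to 8.54 and 7.17 to 7.83. Their part in the values of the 8 factors was not tested. In bulk RNA, fewer cells of a type and less RNA per cell cannot be told apart.

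The second comparison asks the same of 10-week ears, and there 4 of the 8 factors were up-regulated in *Socs3* cKO and none was down-regulated. The DEGs were *Cebpd*, *Ehf*, *Elf3* and *Grhl3*. Of these *Elf3* passed the expression filter only through its level in *Socs3* cKO, and without it the DEGs were *Cebpd*, *Ehf* and *Grhl3*. Of all 13105 genes tested, 14.9% were DEGs and 12.5% were DEGs with higher expression. The median log2(FC) was 1.44 over the 8 factors and 0.31 over all genes, and each value below can be read against the latter.

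*Cebpd* had the largest difference of the 8. It was 8.97, 5.99 and 9.28 FPKM in the wild type and 63.9, 49.5, 52.6 and 67.3 FPKM in *Socs3* cKO. The groups did not overlap, with *Socs3* cKO higher, as in 31.2% of all genes tested, and the lowest *Socs3* cKO mouse was far above the highest wild type mouse. *Cebpd* was up-regulated by 7.21-fold, with a log2(FC) of 2.85 (SE 0.20, adjusted p = 3.4e-05), and stayed a DEG without any 1 of the 7 mice, at 2.65 to 2.96. *Cebpb* was 53.0, 29.5 and 30.3 FPKM in the wild type and 49.6, 47.7, 53.7 and 58.5 FPKM in *Socs3* cKO. Wild type replicate 1 lay within the *Socs3* cKO range and the other two lay below it. The log2(FC) of *Cebpb* was 0.53 (SE 0.22, adjusted p = 0.0844). It was -0.63 relative to the keratinocyte structural genes, and 1.06 with an adjusted p of 0.00259 after removal of the trend with length and GC content, for which *Cebpd* had no value.

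Both ETS factors were up-regulated at 10 weeks. *Ehf* was 4.60, 5.73 and 1.88 FPKM in the wild type and 19.8, 22.5, 36.4 and 12.5 FPKM in *Socs3* cKO. *Elf3* was 0.771, 0.899 and 0.569 FPKM in the wild type and 3.05, 3.12, 6.08 and 2.24 FPKM in *Socs3* cKO. For both genes the groups did not overlap, wild type replicate 3 was the lowest mouse and *Socs3* cKO replicate 3 the highest. *Ehf* was up-regulated by 5.64-fold, with a log2(FC) of 2.49 (SE 0.42, adjusted p = 0.00236), and *Elf3* by 4.17-fold, with a log2(FC) of 2.06 (SE 0.34, adjusted p = 0.00233). *Elf3* was under 1 FPKM in all 3 wild type mice and was tested because of its level in *Socs3* cKO. Without wild type replicate 3, *Elf3* was at 1.90 with an adjusted p of 0.0139 and was no longer a DEG, and *Ehf* was at 2.03 with an adjusted p of 0.00975. That fit had 745 DEGs over all genes, against 1957 with every mouse.

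Among the grainyhead-like factors *Grhl3* was up-regulated, and the other two did not pass the threshold. *Grhl3* was 8.51, 7.47 and 3.53 FPKM in the wild type and 19.0, 30.9, 34.7 and 11.9 FPKM in *Socs3* cKO. No wild type mouse reached the lowest *Socs3* cKO mouse. The log2(FC) was 1.85 (SE 0.41, adjusted p = 0.00737), a level 3.60-fold that of the wild type of the same age. The call did not hold in 6 of the 7 fits that left out 1 mouse, with a log2(FC) of 1.47 to 2.15 and an adjusted p of up to 0.0362, and among these it held only without *Socs3* cKO replicate 4. Calls over all genes changed too, with 745 to 2665 DEGs in the 6 fits against 1957 with every mouse. It was also lost under median-of-ratios scaling (adjusted p = 0.0114), quantile normalization (0.0136), no expression filter (0.0128), a constant prior variance (0.0109) and removal of the length and GC trend (0.0112). *Grhl2* was 3.59, 6.25 and 3.16 FPKM in the wild type and 8.97, 10.6, 9.34 and 6.02 FPKM in *Socs3* cKO, and the ranges overlapped through wild type replicate 2 and *Socs3* cKO replicate 4. Its log2(FC) was 1.03 (SE 0.28, adjusted p = 0.0192), and it was a DEG without the former (1.32, adjusted p = 0.00427) or the latter (1.20, adjusted p = 0.0098). *Grhl1* was 51.9, 46.9 and 25.1 FPKM in the wild type and 60.2, 81.5, 70.6 and 40.6 FPKM in *Socs3* cKO, with a log2(FC) of 0.64 (SE 0.30, adjusted p = 0.119).

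*Trp63* at 10 weeks was 41.6, 56.7 and 23.8 FPKM in the wild type and 68.0, 83.3, 70.2 and 39.4 FPKM in *Socs3* cKO. The ranges overlapped, with 3 of the 4 *Socs3* cKO mice above the wild type. The log2(FC) was 0.72 (SE 0.33, 95% interval -0.01 to 1.44, adjusted p = 0.107).

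**Figure D2:**
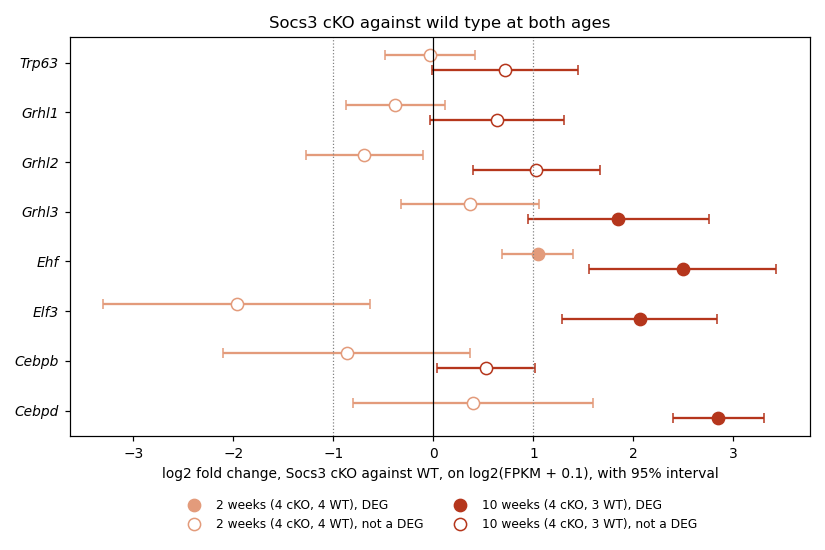
Log2(FC) of *Socs3* cKO against the wild type for the 8 factors at 2 weeks (4 against 4 mice) and 10 weeks (4 against 3 mice), with 95% intervals, filled where the gene was a DEG, and dotted lines at a log2(FC) of -1 and 1. *Ehf* alone was filled at 2 weeks, *Grhl3*, *Ehf*, *Elf3* and *Cebpd* were filled at 10 weeks, and *Elf3* stood at -1.97 and 2.06.

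At 10 weeks the keratinocyte structural genes themselves were higher in *Socs3* cKO, with 5 of 16 up-regulated and none down-regulated, and a median log2(FC) of 0.80. The desmosomal cadherin *Dsg3* was at 3.88 (adjusted p = 0.000227) and the integrin *Itga6* at 3.34 (adjusted p = 0.00241). The 7 keratinocyte markers share *Krt5*, *Krt14*, *Krt15* and *Dsp* with that list and also include keratins of the upper layers. Their median log2(FC) was 0.64, with 0 up-regulated and 1 down-regulated (*Lor*, -2.62). Their mean log2 levels overlapped, at 9.23 to 9.92 (wild type) and 9.25 to 9.99 (*Socs3* cKO). Set against the mean of the 16 structural genes in each library, *Cebpd* and *Ehf* stayed DEGs, at 1.69 (adjusted p = 0.00497) and 1.34 (adjusted p = 0.00416). DEGs were far more common on that scale, 4439 of all 13105 genes tested against 1957 as deposited, so these calls are not particular to the 2 factors. *Elf3* was then at 0.90 (adjusted p = 0.0219) and *Grhl3* at 0.69 (adjusted p = 0.0586), and neither was a DEG. *Trp63*, *Grhl1*, *Grhl2* and *Cebpb* turned negative, at -0.44, -0.52, -0.13 and -0.63, and none of these passed the threshold. At 2 weeks on the same scale *Elf3* was a DEG at -1.61 (adjusted p = 0.00939), while *Ehf* was at 1.40 (adjusted p = 0.0142). There 1880 of all 13524 genes tested were DEGs.

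**Figure D3:**
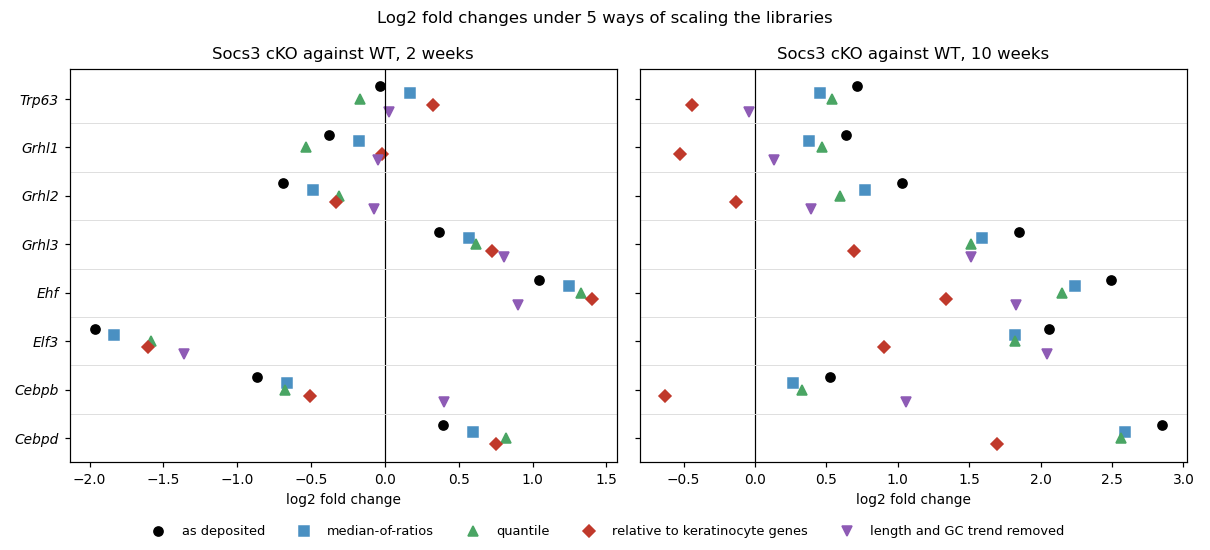
Log2(FC) of *Socs3* cKO against the wild type at 2 weeks (left) and 10 weeks (right) for the 8 factors, with the libraries scaled as deposited, by median of ratios, by quantiles, relative to the keratinocyte structural genes, or after removal of the trend with length and GC content (no value for *Cebpd*). *Ehf* and *Elf3* stayed on their side of 0 under all 5 at both ages, and at 10 weeks the values relative to keratinocyte genes were the lowest of the 5 for each factor.

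Of 8 markers of macrophages and neutrophils tested at 10 weeks, cells that also make C/EBP factors, 5 were up-regulated in *Socs3* cKO and none was down-regulated. Their mean log2 levels, over 9 genes, were 2.57 to 3.12 (wild type) and 3.56 to 4.50 (*Socs3* cKO). Of 7 adipocyte markers 2 were up-regulated, with means of 3.17 to 3.77 and 4.004 to 5.14, and 3 of 4 red blood cell markers were down-regulated, with means of 8.63 to 9.32 and 6.22 to 7.80. Of 6 endothelial markers 3 were up-regulated, with means of 1.29 to 1.69 and 2.37 to 2.80, and of 8 fibroblast markers 1 was up-regulated, with means of 6.89 to 7.75 and 7.82 to 8.30. *Cebpd* lay 2.85 above the wild type on the same log2 scale, and the part of these cells in it was not tested.

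The genotype difference itself was compared between the ages, in 1 fit over the 4 groups. The signed log2(FC) was higher at 10 weeks for *Elf3*, *Cebpd* and *Grhl2*, 3 of the 8 factors. Of the 13937 genes tested, 25.6% had an adjusted p below 0.01 and 18.5% had one with a higher value at 10 weeks. The sign turned from 2 to 10 weeks for *Elf3* (-1.97 and 2.06) and *Grhl2* (-0.69 and 1.03). For *Elf3* the log2(FC) at 10 weeks exceeded that at 2 weeks by 4.03 (SE 0.74, adjusted p = 0.00116), the largest of the 8. The excess was 2.45 (SE 0.62, adjusted p = 0.00666) for *Cebpd* and 1.72 (SE 0.40, adjusted p = 0.00425) for *Grhl2*. The excess for the others ran from 0.75 in *Trp63* (adjusted p = 0.142) to 1.48 in *Grhl3* (adjusted p = 0.0395), and for *Ehf* it was 1.45 (SE 0.48, adjusted p = 0.0239). The median over all genes was 0.55 and over the 8 factors 1.47. The *Elf3* call held in all 15 fits that left out 1 mouse, at 3.39 to 4.41, that of *Grhl2* in 10 and that of *Cebpd* in 5. The *Grhl2* call was lost without wild type replicate 1 or 2 at 2 weeks, wild type replicate 1 or 3 at 10 weeks, or *Socs3* cKO replicate 2 at 10 weeks, with an adjusted p of up to 0.0153. That of *Cebpd* was lost without wild type replicate 1, 2 or 3 at 2 weeks or without any mouse at 10 weeks, with an adjusted p of up to 0.016. Relative to the keratinocyte structural genes, *Grhl2* was at 0.20 and *Cebpd* at 0.94, and neither passed the threshold.

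Between 2 and 10 weeks in the wild type, *Grhl2* was the only one of the 8 factors that was a DEG. It went from 8.49 to 11.2 FPKM down to 3.16 to 6.25 FPKM, with a log2(FC) of -1.23 (SE 0.29, adjusted p = 0.00378). DEGs made up 25.5% of the 13937 genes, and 19.4% were DEGs with lower expression at 10 weeks. In *Grhl1*, *Grhl2*, *Grhl3*, *Ehf* and *Elf3*, every 10-week mouse was below every 2-week mouse, as in 49.5% of all genes. Their log2(FC) ran from -0.70 in *Grhl1* to -1.30 in *Grhl3*, and apart from *Grhl2* none passed the threshold (adjusted p 0.0152 to 0.0615). *Trp63*, *Cebpb* and *Cebpd* overlapped between the ages, at -0.49, 0.31 and 0.39. The call for *Grhl2* was lost without wild type replicate 1 or 2 at 2 weeks, or replicate 1 or 3 at 10 weeks, with a log2(FC) of -1.04 to -1.18. It was also lost under median-of-ratios scaling at -0.84 and relative to the keratinocyte structural genes at -0.20. On the latter scale *Cebpb* was a DEG at 1.34. All 9 hair follicle matrix markers fell with age in the wild type, from means of 5.13 to 5.54 to means of -0.77 to -0.58, as did 5 of 6 endothelial markers (2.96 to 3.23 against 1.29 to 1.69) and 4 of 8 fibroblast markers (8.37 to 8.54 against 6.89 to 7.75), and all 4 red blood cell markers rose (5.84 to 6.09 against 8.63 to 9.32). Their part in these values was not tested.

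Between the ages in *Socs3* cKO, *Cebpd* and *Elf3* rose and the other factors did not pass the threshold. DEGs were 3.54% of the genes here, and 2.01% were DEGs with higher expression. *Cebpd* went from 2.42 to 17.8 FPKM at 2 weeks up to 49.5 to 67.3 FPKM at 10 weeks, with a log2(FC) of 2.85 (SE 0.42, adjusted p = 0.000679). *Elf3* went from 0.0386 to 1.05 FPKM up to 2.24 to 6.08 FPKM, with a log2(FC) of 2.75 (SE 0.50, adjusted p = 0.00326), and was not a DEG without 10-week replicate 2 (adjusted p = 0.0103) or 3 (adjusted p = 0.0145). *Cebpb* was higher in every 10-week mouse than in every 2-week mouse, as in 7.71% of all genes. Its log2(FC) was 1.71 (SE 0.44, adjusted p = 0.0241), and it was 1.09 with an adjusted p of 0.00364 and a DEG without replicate 1 at 2 weeks. The grainyhead-like factors, *Ehf* and *Trp63* were at 0.18 to 0.49 with overlapping ranges. For *Grhl2*, *Grhl3* and *Ehf* the age difference in the wild type was further from 0, at -1.23, -1.30 and -1.15. Their higher genotype difference at 10 weeks thus goes more with lower wild type values than with higher *Socs3* cKO values. Of 7 skeletal muscle markers 6 fell with age in *Socs3* cKO, from means of 6.74 to 7.20 to means of 4.47 to 5.41, 3 of 4 red blood cell markers fell (8.22 to 9.49 against 6.22 to 7.80), and 3 of 8 macrophage and neutrophil markers rose (3.17 to 3.55 against 3.56 to 4.50), and their part was not tested either. The age comparisons use the same mice as the genotype comparisons and are not independent of them.

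Close relatives were then set against each other within each library, where a scale factor of the library cancels. A trend with length or GC content does not cancel, and GC content was 42.5% in *Ehf* and 56.4% in *Elf3*. The ratios were not corrected for it. The pairs were chosen after the values had been seen, so no test is given. At 2 weeks *Ehf* was 3.77 to 4.97 times *Elf3* in the wild type and 19.5 to 478.9 times *Elf3* in *Socs3* cKO, and 478.9 was replicate 1. At 10 weeks the ratio ranged over 3.31 to 6.38 (wild type) and 5.57 to 7.21 (*Socs3* cKO), and these overlapped. *Grhl3* was 1.39 to 1.72 times *Grhl2* in the 2-week wild type and 2.35 to 4.34 times *Grhl2* in 2-week *Socs3* cKO. At 10 weeks these ranges were 1.12 to 2.37 and 1.98 to 3.72 and overlapped.

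The balance of the C/EBP factors was apart at both ages. The ratio of *Cebpd* to *Cebpb* at 2 weeks ranged over 0.171 to 0.238 (wild type) and 0.411 to 0.553 (*Socs3* cKO), and at 10 weeks over 0.169 to 0.306 (wild type) and 0.980 to 1.29 (*Socs3* cKO). Removal of the length and GC trend moved the log2(FC) of *Cebpb* at 2 weeks from -0.87 to 0.40, and *Cebpd* had no value there. The part of that trend in this ratio was not tested. The most abundant factors stayed close to each other. *Grhl1* was 1.12 to 1.39 times *Trp63* in the 2-week wild type and 0.802 to 1.02 times *Trp63* in 2-week *Socs3* cKO, and 0.827 to 1.25 and 0.886 to 1.03 times at 10 weeks. Replicate 1 of 2-week *Socs3* cKO, the lowest mouse in *Cebpb* and *Cebpd*, had a *Cebpd* to *Cebpb* ratio of 0.553, the upper end of its group.

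**Figure D4:**
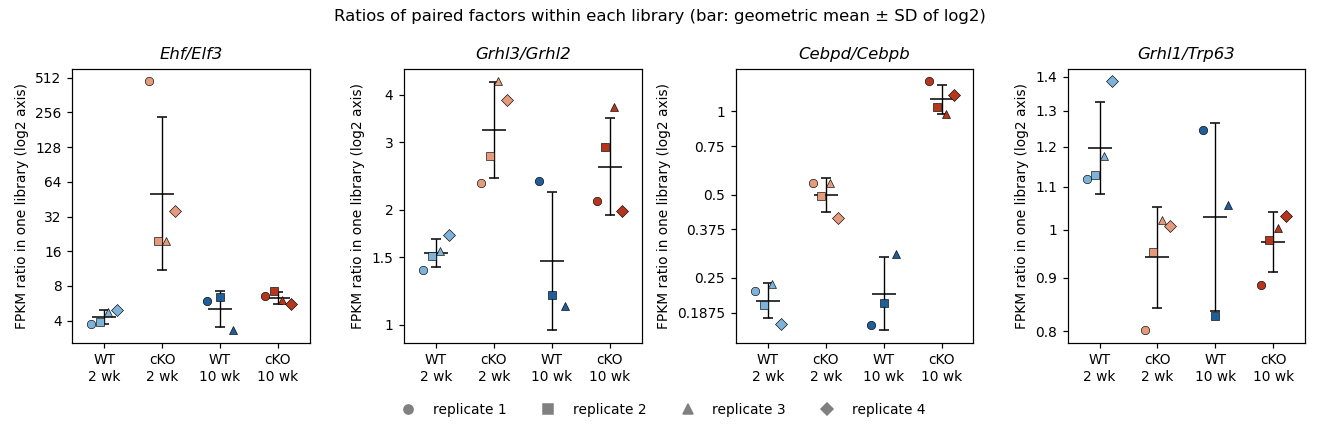
FPKM of *Ehf* over *Elf3*, *Grhl3* over *Grhl2*, *Cebpd* over *Cebpb* and *Grhl1* over *Trp63* in each library on log2 axes, with the geometric mean and the SD of the log2 values as bars. At 2 weeks the groups were apart in all 4 ratios, and at 10 weeks they were apart in *Cebpd* over *Cebpb* (0.169 to 0.306 against 0.980 to 1.29). The pairs were chosen after the values had been seen, and no share over other pairs of genes was computed. Among single genes at 2 weeks, 22.9% were higher and 33.2% lower in *Socs3* cKO without overlap.

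Other transcription factors of the epidermis were counted beside the 8. Of 23 tested at 2 weeks, 6 were down-regulated and 1 was up-regulated. *Dlx3*, a homeobox factor of the follicle and of differentiating epidermis, had a log2(FC) of -3.42 (45.1 ± 4.88 against 4.56 ± 1.93 FPKM, SD, n = 4 and 4, adjusted p = 0.000404). *Vdr*, the vitamin D receptor, was at -1.88 (adjusted p = 0.00239) and *Barx2*, a homeobox factor, at -1.87 (adjusted p = 0.00174). The nuclear receptor *Rora* was up-regulated at both ages, with a log2(FC) of 3.13 in the younger mice (adjusted p = 0.000953) and 4.14 in the older mice (adjusted p = 0.000178). At 10 weeks 3 of 23 were up-regulated and 2 down-regulated. *Vdr* was up-regulated there at 1.24 (adjusted p = 0.00497) and so was *Zfp750*, a factor of terminal differentiation, at 1.39 (adjusted p = 0.00694). *Gata3* at -1.77 (adjusted p = 0.00306) and *Sox9*, a follicle stem cell factor, at -1.11 (adjusted p = 0.00704) were down-regulated.

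Known target genes of each family were counted from lists of such genes. Of 10 C/EBP targets tested at 2 weeks 2 were up-regulated, the iron carrier lipocalin *Lcn2* at 2.96 (adjusted p = 7.33e-05) and *Cfd*, the complement factor made by fat cells, at 2.28 (adjusted p = 0.00566). At 10 weeks 5 of 11 were up-regulated, with a median log2(FC) of 1.79. They were 4 of 10 without *Il6*, which was under 1 FPKM in all 3 wild type mice and was tested because of its level in *Socs3* cKO. Both counts and the median also include *Socs3*, the targeted gene, so they rest in part on the gene that defines the groups. The 5 included the cytokine *Il6*, at 0.256 ± 0.314 FPKM in the wild type (n = 3) and 69.4 ± 32.1 FPKM in *Socs3* cKO (n = 4). Its log2(FC) was 7.84 (adjusted p = 2.14e-05). Also among them were *Socs3* at 3.54 and *Ptx3*, a pentraxin of the acute phase, at 2.61 (adjusted p = 0.00017). None of the C/EBP targets was down-regulated at either age.

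Of 16 grainyhead targets 1 was up-regulated at 2 weeks, the desmosomal cadherin *Dsg1a* at 1.57 (adjusted p = 0.000125), and the list median was -0.58. At 10 weeks 3 were up-regulated, among them the splicing regulator *Esrp2* at 2.23 (adjusted p = 0.00409) and E-cadherin (*Cdh1*) at 2.16 (adjusted p = 0.00887), with a list median of 0.34. Of 14 p63 targets 2 were up-regulated at each age, *Perp* at 1.06 (adjusted p = 0.00113) and *Krt14* at 1.02 (adjusted p = 0.0069) at 2 weeks, and *Dst* at 2.03 (adjusted p = 0.000713) and *Cdkn1a* at 1.43 (adjusted p = 0.000445) at 10 weeks. The list medians were -0.36 and 0.75. Of 8 epithelial ETS targets 1 was up-regulated and 1 down-regulated at each age. The keratin *Krt4* was up-regulated at 2 weeks, at 1.20 (adjusted p = 0.00606), and no other of these targets was. *Krt4* was under 1 FPKM in every wild type mouse of that age and was tested because of its level in *Socs3* cKO. *Sprr1a*, a precursor of the cornified envelope, was at -1.98 (adjusted p = 8.96e-05) at 2 weeks. At 10 weeks *Tgfbr2*, a TGF-β receptor, was at 1.30 (adjusted p = 0.00119) and loricrin (*Lor*) at -2.62 (adjusted p = 0.000452). The counts are read against the DEG shares of 14.4% and 14.9% over all genes, and nothing particular to a list is drawn from them.

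The 3 genes with the most similar profile to each factor were found over the 15 mice, by the root mean square distance between centred log2(FPKM + 0.1) values among 13937 genes. For *Trp63* they were *Btbd3*, *Rassf5* and *Col4a3bp*, at 0.14 to 0.16, for *Grhl1* *Wdr26*, *Ing5* and *Mfsd6*, at 0.12 to 0.17, and for *Grhl2* *Zc3h13*, *Chd6* and *Zfp236*, at 0.11 to 0.12. The closest gene to *Grhl3* was *Tbck* at 0.31, followed by *C030046E11Rik* and *Apbb2*, and those to *Ehf* were *Slc6a20a* at 0.24, *Hook1* and *Bmpr2*. *Elf3* had *Midn* at 0.32, *Nfkbie* and *Bcl3*, and *Cebpb* had *Id3* at 0.30, *Gata2* and *Wnt10a*. *Cebpd* had the most distant neighbours, *Ier3* at 0.42, *Ptx3* at 0.52 and *Bhlhe40* at 0.55, and also the widest spread of its own, 1.45 over the 15 mice against 0.44 for *Trp63*. None of the 8 factors was among the 3 nearest of another.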

How the data were processed

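Ear RNA of 15 mice was analysed, in 4 groups taken from the sample labels. TopHat2 2.1.0 placed the reads (50 bases, single end) on mm9, and the authors deposited 1 FPKM value per gene and library. Cufflinks is named in the submitters' processing notes without a version. FPKM depends on length, on the total of mapped reads and on composition, and without counts no counting error could be given. The authors tested genes with edgeR, and here limma 3.58.1 in R 4.3.3 was used with a prior variance that follows expression, on log2(FPKM + 0.1). A fold change on that scale understates changes of low genes. Genes with at least 1 FPKM in at least 3 of the samples compared were tested. The interaction and age comparisons were fitted on all 4 groups. The DEG thresholds are those of the study. No pair of libraries shared more than 1 identical value above 0. Nothing states whether mice shared a litter. Each p-value sets a group difference against the spread between these mice, drawn toward that of genes of like expression. It cannot tell genotype or age from a batch of libraries.

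Named genes were the 8 factors, *Socs3*, up to 3 DEGs per gene list, age and direction with the largest |log2(FC)|, and the 3 nearest profiles, and 1 gene of a list is not reported here. The factors, gene lists and marker lists were chosen with earlier results of these data known. Positions came from GENCODE for mm9 and promoters from RefSeq (GRCm38.p6). Length and GC content were found for 19443 genes (92.1%). Alternatives were pseudocounts of 1 and 0.01, other filters, 3 other scalings, a replicate block, a constant prior variance, 1 fit for all groups and leaving out each mouse. Removal of the length and GC trend, and leaving out both libraries lowest in keratinocyte genes, were chosen after seeing the data. Lowest refers to the mean of the keratinocyte structural genes, not to each gene. The limma step was tested on simulated data. Calculations outside R used Python 3.11.15, numpy 2.4.6, pandas 2.3.3, scipy 1.17.1 and matplotlib 3.10.9.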

Additional observations from a re-analysis of the deposited data

Results flagged for a closer look

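For 3 factors the genotype difference differed between the ages in the fit over all 4 groups. The log2(FC) of *Socs3* cKO against the wild type was larger at 10 than at 2 weeks by 4.03 for *Elf3* (adjusted p = 0.00116), by 2.45 for *Cebpd* (adjusted p = 0.00666) and by 1.72 for *Grhl2* (adjusted p = 0.00425). For *Elf3* the separate log2(FC) values were -1.97 and 2.06, for *Grhl2* they were -0.69 and 1.03, and for *Cebpd* 0.40 and 2.85. Without both libraries lowest in keratinocyte genes, the excess was 3.23 for *Elf3* (adjusted p = 0.000282), 2.01 for *Cebpd* (adjusted p = 0.000949) and 1.36 for *Grhl2* (adjusted p = 0.0127, no longer past the threshold).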

How the results depend on the processing

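The number of factors that were DEGs at 2 weeks, 1 as reported, was 0 with a pseudocount of 1, with the replicate block and after removal of the length and GC trend, 2 without both libraries lowest in keratinocyte genes, and 0 to 2 when mice were left out in turn. At 10 weeks 4 became 2 relative to the keratinocyte structural genes and without both libraries, 3 without *Grhl3* under both other scalings, no filter and a constant prior variance, and 2 to 5 when mice were left out. The interaction count of 3 became 1 under quantile normalization, relative to keratinocyte genes and after removal of the length and GC trend (where *Cebpd* was not tested for want of a GC value), 2 under median-of-ratios scaling (*Cebpd*, adjusted p = 0.0118), and 1 to 3 when mice were left out. In the wild type with age 1 became 0 under median-of-ratios scaling, quantile normalization and the length and GC trend, and 0 to 2 when mice were left out. Relative to keratinocyte genes that count stayed at 1, but *Grhl2* was lost and *Cebpb* became a DEG, higher at 10 weeks with a log2(FC) of 1.34. In *Socs3* cKO with age 2 became 1 with a pseudocount of 0.01 (*Elf3*, adjusted p = 0.0103), and 1 to 3 when mice were left out.

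Signs turned as follows. For *Trp63* at 2 weeks the log2(FC) was 0.17 under median-of-ratios scaling, 0.33 relative to keratinocyte genes, 0.030 after removal of the length and GC trend, 0.035 without both libraries and -0.20 to 0.094 when mice were left out. After removal of that trend *Cebpb* at 2 weeks was 0.40, and *Trp63* was -0.041 at 10 weeks, -0.045 in the interaction and 0.19 in the wild type with age. Relative to keratinocyte genes *Trp63*, *Grhl1*, *Grhl2* and *Cebpb* at 10 weeks were -0.44, -0.52, -0.13 and -0.63. On that scale the interaction of *Trp63*, *Grhl1*, *Grhl3*, *Ehf* and *Cebpb* was -0.77, -0.50, -0.035, -0.064 and -0.12, the age difference in the wild type was 0.55 for *Trp63* and 0.33 for *Grhl1*, and in *Socs3* cKO it was -0.22, -0.18, -0.30 and -0.18 for *Trp63*, *Grhl1*, *Grhl3* and *Ehf*. *Grhl3* with age in *Socs3* cKO was -0.14 without both libraries and -0.14 to 0.48 when mice were left out. At 10 weeks the log2 ratio of *Grhl1* to *Trp63* in *Socs3* cKO minus that in the wild type, -0.079, was 0.059 without wild type replicate 1 and -0.24 to 0.059 over all mice left out in turn. The cause was not tested.

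No pairing of the mice by replicate number was seen, and so few mice cannot settle whether there was any. The deviations of same-numbered mice from their group means correlated at a mean of 0.02 at 2 weeks (-0.04 to 0.14) and -0.11 at 10 weeks (-0.21 to 0.07). For mice of unlike number these were -0.007 (-0.14 to 0.08) and 0.04 (-0.24 to 0.17). With the replicate block *Ehf* at 2 weeks had an adjusted p of 0.0142, *Grhl2* at 10 weeks became a DEG at 1.20 (adjusted p = 0.00876), for 5 DEGs in all, and *Cebpd* left the interaction calls (adjusted p = 0.0108), for 2 in all. The block changed no other call of the 8 factors.

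Without counts, the error of the low *Elf3* values is unknown, and 3 wild type mice at 10 weeks limit every comparison that uses them.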
